A study of Homo sapiens with 4 samples.

Results

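The genes described here are the solute carriers, named SLC with a family number, and the water and glycerol channel AQP3. Every protein-coding gene of the deposited table with an SLC symbol or the symbol AQP3 was taken, which gave 46 of the 2897 genes: 45 SLC genes of 22 families and AQP3. RNA was sequenced from the human gastric cancer cell lines AGS-1 (given as AGS among the cell line labels) and HGC-27, each untreated (control) or treated with isorhamnetin (ISO), a methylated plant flavonol. The labels give 50 μM for 24 h, while the text of the study gives another, lower dose. Both lines grew in RPMI-1640 with fetal bovine serum, are wild type by label, and gave 1 library per condition, so the 4 libraries hold no replicate of any condition. The comparison asks which transporter transcripts differ in level after ISO, and in which line.

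Solute carriers move amino acids, sugars, ions, metals, nucleotides and other small molecules across the plasma membrane and the membranes of organelles. Members of the SLC25 family sit in the inner mitochondrial membrane, and those of the SLC35 family serve mainly the Golgi. Cancer cells often express glucose and amino acid importers at high level, and AQP3 passes water and glycerol in many epithelia, the stomach among them.

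The level of each gene is given as FPKM, the fragments per gene scaled by gene length and by library size, which allows comparison between genes. From the FPKM and the gene lengths, 15235004 fragments were recovered for AGS-1 control, 15957590 for AGS-1 ISO, 20199425 for HGC-27 control and 17072456 for HGC-27 ISO. Ratios are log2 ratios of FPKM + 1, which understate changes of genes with low levels. Their SE comes from the number of fragments alone. It covers counting error and not the variation between cultures, and among the members it was at most 0.09 in AGS-1, against 0.13 in HGC-27.

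The labels call AGS-1 a gastric adenocarcinoma cell and HGC-27 a gastric carcinoma cell. Of 7 epithelial markers, 5 were in the table (KRT8, KRT18, KRT19, CLDN4 and EPCAM), with a summed level of 2130 FPKM in AGS-1 control and 1360 FPKM in AGS-1 ISO. The same 5 genes summed to only 4.42 FPKM in HGC-27 control and 3.58 FPKM in HGC-27 ISO, and KRT19, the highest of them in AGS-1 control, was listed at 0 in both HGC-27 libraries. In HGC-27, 3 of 5 mesenchymal markers (VIM, TWIST1 and SPARC) summed to 734 FPKM without and 483 FPKM with ISO, against 0.712 and 0.860 FPKM in AGS-1, where TWIST1 was listed at 0. The 2 of 5 fibroblast markers in the table, COL3A1 and COL1A1, followed the same division, with 776 and 602 FPKM in HGC-27 and 9.75 and 6.83 FPKM in AGS-1. LYZ, the single leukocyte marker of 5 in the table and also a product of gastric epithelium, had 594 FPKM in AGS-1 control, 314 FPKM in AGS-1 ISO and 0 in HGC-27. No gene of the endothelial list (3 genes) or of the gastric gland list (6 genes) was in the table. Epithelial markers were thus high in AGS-1 and at or near 0 in HGC-27. Whether this bears on the carcinoma label of HGC-27 was not tested. The summed epithelial markers were lower in AGS-1 ISO than in AGS-1 control, though CLDN4 was not, with 218 FPKM in control and 225 in ISO. In HGC-27 TWIST1 fell past 2-fold as deposited, from 334 to 155 FPKM (log2 ratio -1.10). The part of these markers in the transporter results was not tested. In such bulk RNA, fewer cells of a kind and less RNA per cell cannot be told apart.

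The 46 members summed to 3963 FPKM in AGS-1 control, 2368 in AGS-1 ISO, 2137 in HGC-27 control and 1988 in HGC-27 ISO. This was 1.39% of the summed FPKM of all listed genes in AGS-1 control and 0.811%, 0.849% and 0.736% in the other libraries, in the same order. As deposited, AGS-1 control therefore stood apart with the highest transporter level, and the other 3 libraries lay close together. The summed FPKM includes the 29 listed genes of the mitochondrial genome, so the shares also depend on them. These genes held 94853 FPKM in AGS-1 control, 156713 in AGS-1 ISO, 109285 in HGC-27 control and 140780 in HGC-27 ISO. The median member had 38.0 FPKM in AGS-1 control and 29.9 in AGS-1 ISO, beside medians of 33.5 and 26.7 over all genes. For HGC-27 the median member had 29.5 FPKM in control and 24.1 in ISO, beside 27.6 and 25.6 over all genes. Amino acid transporters held the largest share of the members' FPKM in every library, from 37.5% in AGS-1 ISO to 42.0% in AGS-1 control. The mitochondrial carriers followed with 23.0% in AGS-1 control, 28.4% in AGS-1 ISO, 31.5% in HGC-27 control and 32.2% in HGC-27 ISO. Sugar transporters held 16.7% and 13.1% of the members' FPKM in AGS-1 and 3.27% and 2.95% in HGC-27.

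**Figure D1:**
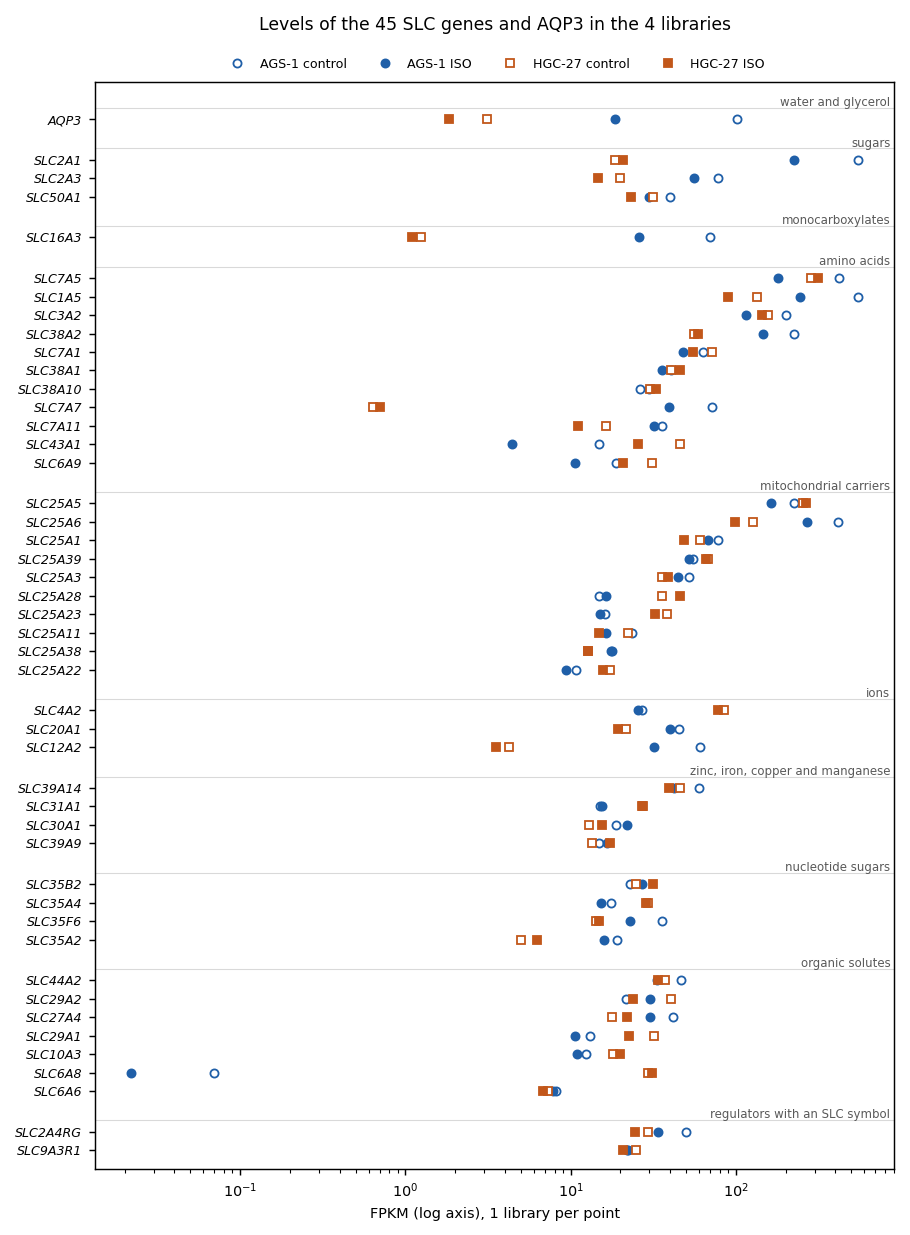
FPKM of each member (log axis) in the 4 libraries, grouped by substrate, with open symbols for control and filled symbols for ISO. AQP3, SLC2A1, SLC16A3, SLC7A7 and SLC12A2 lie far to the right in AGS-1, and SLC6A8 far to the right in HGC-27.

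After ISO, 6 members fell at least 2-fold in AGS-1 (AQP3, SLC43A1, SLC16A3, SLC2A1, SLC7A5 and SLC1A5), 13.0% of the members beside 6.63% of all genes. No member rose at least 2-fold in AGS-1, where 0.828% of all genes did. In HGC-27 no member passed 2-fold in either direction, beside 0.932% of all genes lower and 0.552% higher. The ratio was below 0 for 38 of the 46 members in AGS-1 (78.6% of all genes), for 28 in HGC-27 (64.2% of all genes), and for 26 in both lines (56.0% of all genes). These shares, 82.6%, 60.9% and 56.5% of the members, lay near the background.

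The whole table shifted downward with the deposited scaling. Over all genes the median log2 ratio was -0.29 in AGS-1, against -0.11 in HGC-27, and over the members it was -0.26 and -0.11. AGS-1 control also stood apart in composition, with 78.5% of its fragments in the listed genes, against 64.4% in AGS-1 ISO, 61.0% in HGC-27 control and 60.0% in HGC-27 ISO. The 29 listed genes of the mitochondrial genome took 9.43% of the fragments in AGS-1 control, 14.3% in AGS-1 ISO, 9.75% in HGC-27 control and 12.4% in HGC-27 ISO. All 13 protein-coding ones had ratios above 0 in AGS-1, with a median of 0.87 and 5 of them at least 2-fold higher, and their median in HGC-27 was 0.59. The Wilson 95% intervals of these shares reached at most 0.0235 percentage points to either side and cover counting error only. The part of these shares in the transporter results was not tested. With median-of-ratios scaling the median over all genes became -0.02 in AGS-1, against -0.05 in HGC-27, and with upper-quartile scaling 0.10 and 0.03. The number of members that fell at least 2-fold in AGS-1 became 4 with median-of-ratios scaling (AQP3, SLC43A1, SLC16A3 and SLC2A1) and 2 with upper-quartile scaling (AQP3 and SLC43A1). Among all genes in AGS-1, 192 were at least 2-fold lower and 24 higher as deposited, 72 and 50 with the first scaling, and 42 and 60 with the second. For HGC-27 the same split was 27 and 16, 24 and 20, and 15 and 26. The sign of the ratio changed for 14 and 17 of the 46 members in AGS-1 with these scalings, and for 3 and 8 in HGC-27. Of members named for their family or pair, SLC25A1, SLC25A3, SLC38A1, SLC7A11, SLC20A1 and SLC9A3R1 turned positive in AGS-1 with both, SLC7A1 and SLC50A1 with upper-quartile scaling alone, and SLC3A2 did so in HGC-27 with upper-quartile scaling. Ratios of single members are therefore also given relative to the median of all genes. On that scale 22 of 46 members lay below the median of all genes in AGS-1 and 23 in HGC-27.

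**Figure D2:**
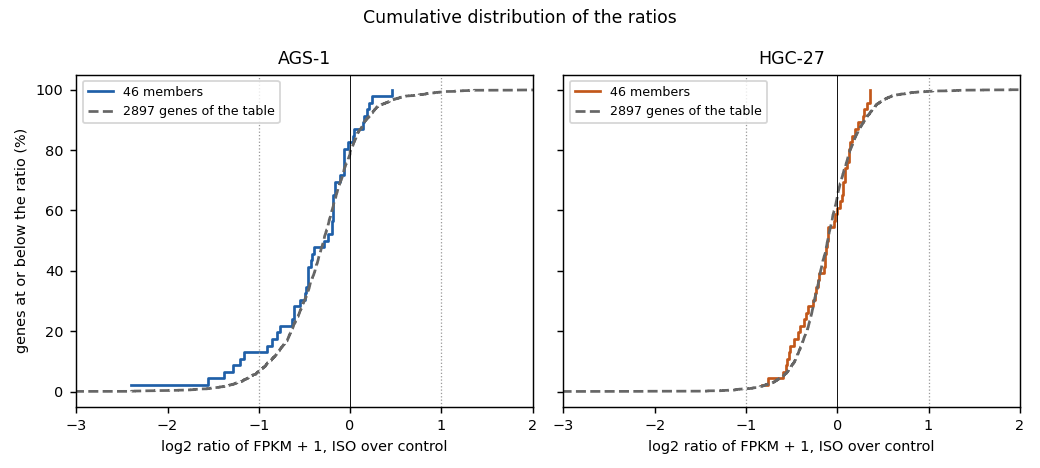
Cumulative share of genes (%) against the log2 ratio of FPKM + 1, ISO over control, for the 46 members and for all 2897 genes in each line, with dotted lines at a 2-fold change. The curves have nearly the same median, and with the deposited scaling 6 members lie beyond the lower dotted line in AGS-1.

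**Figure D3:**
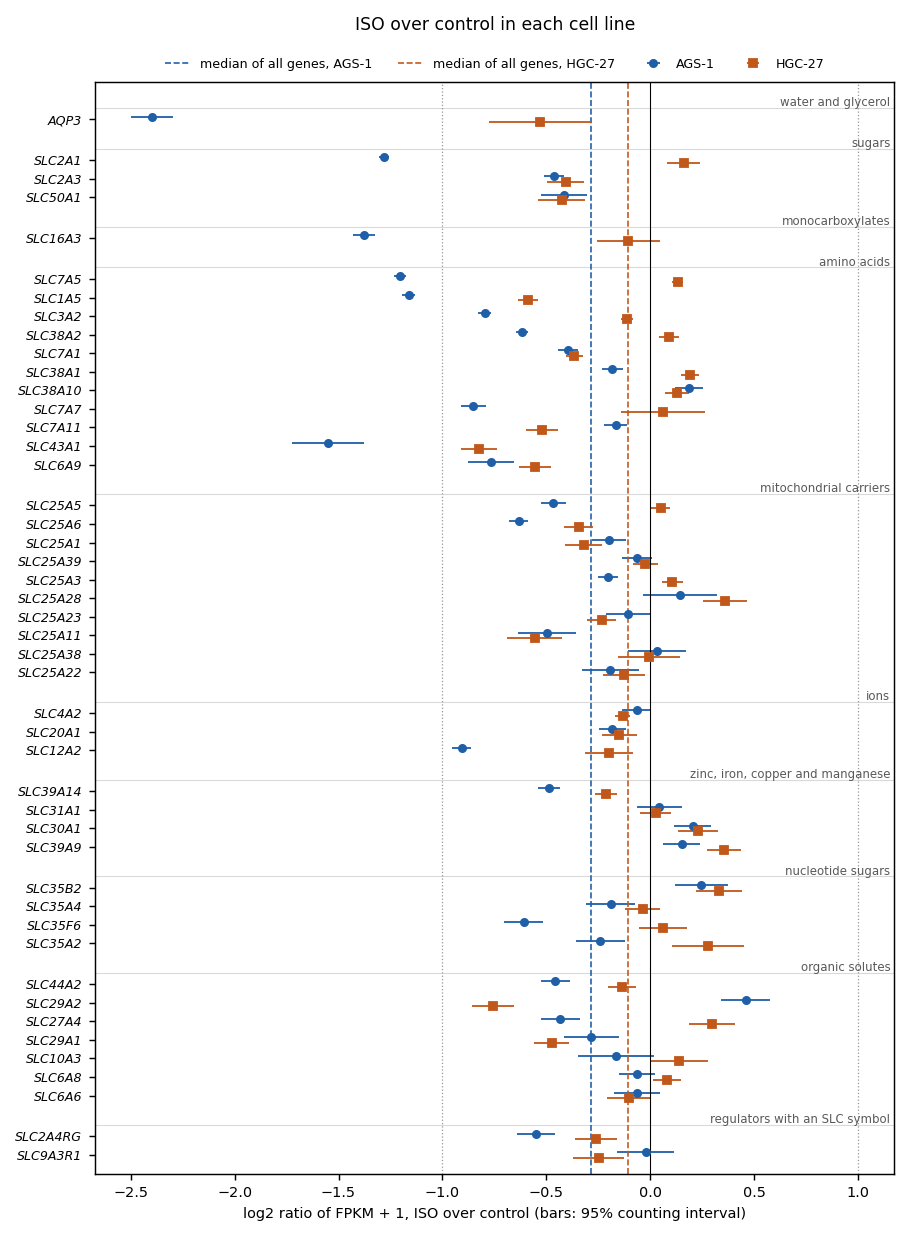
Log2 ratio of FPKM + 1, ISO over control, of each member in AGS-1 (circles) and HGC-27 (squares), with bars for the 95% counting interval and dashed lines for the median of all genes. In AGS-1, AQP3 at -2.40 lies farthest to the left, and no HGC-27 value is below -0.82.

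AQP3, the aquaglyceroporin, lies on chromosome 9 from 33441156 to 33447596 on the minus strand (ENSG00000165272). Its level was 102 FPKM in AGS-1 control, 18.6 in AGS-1 ISO, 3.11 in HGC-27 control and 1.85 in HGC-27 ISO. AGS-1 control was by far the highest library, and AGS-1 ISO, though 5.50-fold lower, was still above both HGC-27 libraries. The log2 ratio was -2.40 (counting SE 0.05) in AGS-1, or -2.11 relative to all genes, the lowest of the members. In HGC-27 it was -0.53 (SE 0.13), resting on 183 fragments in control and 92 in ISO. No other aquaporin was among the listed genes.

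RefSeq promoter windows (GRCh38.p14, 250 bases before to 50 after a start) were found for 40 of the 46 members, in 66 windows. They were searched on both strands for TGATGNAA, the core of the amino acid response element, and for CACGTG, the E-box. Neither motif contains the other. TGATGNAA occurred in 5 of the 66 member windows (7.58%), beside 3.62% of all 35116 windows, and these belonged to SLC1A5, SLC3A2, SLC7A1, SLC38A1 and SLC25A11. CACGTG occurred in 12 of the 66 (18.2%), beside 7.26% of all windows, and among its 11 members were SLC7A5, SLC1A5 and SLC43A1. All windows here means those of 27305 genes, most of them outside the deposited table. Shares over the listed genes alone were not computed, so an excess particular to transporters was not tested. A match describes letters in a window and does not show that a factor binds there. Of the 6 members that fell at least 2-fold in AGS-1, 5 had stretches of 150 bases before a start outside annotated untranslated and coding parts, 9 stretches in all, of which 2 held a match. For each of the 5, the stretch of the farthest upstream start is shown 5′ to 3′, with capitals for a match to either motif.
AQP3, chr9:33447634-33447783, minus strand: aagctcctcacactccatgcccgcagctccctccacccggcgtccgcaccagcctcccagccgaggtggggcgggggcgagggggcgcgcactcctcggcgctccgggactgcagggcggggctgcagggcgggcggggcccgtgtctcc
SLC43A1, chr11:57515787-57515936, minus strand: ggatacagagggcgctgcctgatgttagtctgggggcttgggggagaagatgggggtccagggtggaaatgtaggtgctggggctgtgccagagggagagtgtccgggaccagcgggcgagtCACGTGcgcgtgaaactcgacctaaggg
SLC7A5, chr16:87869508-87869657, minus strand: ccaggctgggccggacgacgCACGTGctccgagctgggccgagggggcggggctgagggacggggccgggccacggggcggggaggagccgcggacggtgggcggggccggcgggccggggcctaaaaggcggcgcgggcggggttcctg
SLC1A5, chr19:46788595-46788744, minus strand: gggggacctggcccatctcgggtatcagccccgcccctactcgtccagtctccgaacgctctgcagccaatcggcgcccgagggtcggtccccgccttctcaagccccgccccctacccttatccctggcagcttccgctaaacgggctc
SLC16A3, chr17:82228247-82228396, plus strand: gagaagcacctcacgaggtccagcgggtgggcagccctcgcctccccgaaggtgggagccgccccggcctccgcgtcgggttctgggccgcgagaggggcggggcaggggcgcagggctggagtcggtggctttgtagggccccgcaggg

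The CACGTG of SLC7A5 begins 130 bases before its start and that of SLC43A1 begins 112 bases before. The stretches of AQP3, SLC1A5 and SLC16A3 hold neither motif, nor do a second stretch of SLC43A1, a second of SLC1A5 and 2 more of SLC16A3, which belong to other starts. The matches of SLC1A5 lie in windows of its other starts, and none lies whole within a stretch. All 5 stretches shown are rich in G and C, with 76.0% in SLC16A3, 78.0% in AQP3, 82.7% in SLC7A5, 68.7% in SLC1A5 and 63.3% in SLC43A1.

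Among the sugar transporters, SLC2A1 encodes GLUT1, the widely expressed facilitative glucose transporter. It had 545 FPKM in AGS-1 control, 224 in AGS-1 ISO, 18.5 in HGC-27 control and 20.7 in HGC-27 ISO. SLC2A1 was thus the second most abundant member in AGS-1 control and a minor one in HGC-27, and in AGS-1 it was 2.44-fold lower with ISO. The log2 ratio was -1.28 (SE 0.01) in AGS-1, just short of 2-fold relative to all genes, and 0.16 (SE 0.04) in HGC-27. SLC2A3, the related transporter GLUT3, had 77.5 and 56.0 FPKM in AGS-1 without and with ISO, and 19.8 and 14.7 FPKM in HGC-27. Its log2 ratios of -0.46 and -0.41 were short of 2-fold, and its level is uncertain because SLC2A14 is a near-identical copy. SLC50A1, a sugar transporter of the SWEET family, had ratios of -0.42 and -0.43.

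SLC16A3 encodes MCT4, which exports lactate with protons. Its level was 69.5 FPKM in AGS-1 control, 26.1 in AGS-1 ISO, 1.25 in HGC-27 control and 1.09 in HGC-27 ISO. It was a gene of AGS-1, where it fell 2.66-fold, with a log2 ratio of -1.38 (SE 0.03). The HGC-27 ratio of -0.11 (SE 0.08) was within 2 counting SE of 0 and equal to the median of all genes.

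Partners of transporters were followed by a list of 8 genes, of which 5 were in the table under the listed symbol, with median log2 ratios of -1.01 in AGS-1, against -0.37 in HGC-27. The AGS-1 median was -0.73 with median-of-ratios and -0.58 with upper-quartile scaling. TXNIP, an arrestin-like protein that promotes removal of glucose transporters from the cell surface, had 312 FPKM in AGS-1 control, 65.1 in AGS-1 ISO, 128 in HGC-27 control and 14.9 in HGC-27 ISO. TXNIP fell in both lines, with log2 ratios of -2.24 and -3.02, so SLC2A1 and TXNIP were lower together in AGS-1 while in HGC-27 TXNIP alone was past 2-fold. It was the 1 gene of the pathway lists that limma called for ISO over both lines, with a log2 difference of -2.63 and an adjusted p of 0.000371. The call was lost in limma with median-of-ratios scaling (adjusted p 0.0517), upper-quartile scaling (0.0653) and no cell line in the model (1.00), and over the other alternatives the adjusted p ran from 4.35e-06 to 0.00643. EZR, which links membrane proteins to actin, fell from 456 to 225 FPKM in AGS-1 (log2 ratio -1.01) and was at 39.5 and 30.4 FPKM in HGC-27. EZR is the median gene of the list and was short of 2-fold with both other scalings. STOM, a membrane protein that binds GLUT1, dropped to 0.274 FPKM from 2.71 in AGS-1 (log2 ratio -1.54) and had 49.4 and 35.9 FPKM in HGC-27. Its AGS-1 values rest on 132 fragments in control and 14 in ISO, so the size of that ratio depends on the pseudocount. BSG, the chaperone that carries MCT4 to the surface, was at 187 and 146 FPKM in AGS-1 and at 239 and 217 FPKM in HGC-27. SLC16A3 therefore changed against a partner that stayed within 2-fold.

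Of 11 genes of glucose use, 8 were in the table and none passed 2-fold in either line. Their median log2 ratios were -0.26 and -0.19, and the AGS-1 median turned to 0.02 with median-of-ratios and 0.17 with upper-quartile scaling, where that of HGC-27 was -0.12 and -0.04. GAPDH, the highest in every library, had 596 and 536 FPKM in AGS-1 and 1211 and 1131 FPKM in HGC-27. Single genes differed in AGS-1: HK2, which phosphorylates glucose, had 54.4 and 28.4 FPKM (log2 ratio -0.92) and PFKP had -0.61, while PGK1, GPI and HK1 lay between -0.09 and -0.01. In AGS-1, 4 of the 8 lay below the median of all genes: HK2, PFKP, ENO1 (-0.46) and PKM (-0.37).

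The 11 amino acid transporters had a median log2 ratio of -0.77 in AGS-1, against -0.11 in HGC-27, which is -0.48 and -0.01 relative to all genes. In AGS-1, 8 of the 11 lay below the median of all genes and in HGC-27 6 did. In AGS-1 3 of the 11 fell at least 2-fold, beside 6.63% of all genes, and 1, SLC43A1, with either other scaling, where SLC7A5 had -0.93 and -0.78 and SLC1A5 -0.89 and -0.73. The 11 genes summed to 1666 FPKM without and 887 FPKM with ISO in AGS-1, and 868 and 799 FPKM in HGC-27. The AGS-1 values of SLC38A1, SLC7A11 and SLC38A10 lay above the median of all genes. The class median stayed below 0 in AGS-1 with both other scalings (-0.51 and -0.36) and in HGC-27 became 0.03 with upper-quartile scaling.

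SLC7A5 encodes LAT1, the light chain that exchanges large neutral amino acids and is joined to the heavy chain 4F2hc. Its level was 419 FPKM in AGS-1 control, 181 in AGS-1 ISO, 287 in HGC-27 control and 314 in HGC-27 ISO. AGS-1 control was the highest library and AGS-1 ISO the lowest, so the order of the lines was reversed between control and ISO. The log2 ratio was -1.21 (SE 0.01) in AGS-1, against 0.13 (SE 0.01) in HGC-27, or -0.92 and 0.24 relative to all genes. SLC3A2, which encodes 4F2hc, had 200, 115, 156 and 144 FPKM in the same order of libraries. This heavy chain followed SLC7A5 in AGS-1 with a smaller ratio of -0.80, short of 2-fold, and had -0.11 in HGC-27.

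2 further light chains of 4F2hc were listed. SLC7A7 encodes y+LAT1, an exchanger of cationic and neutral amino acids, and had 71.5 FPKM in AGS-1 control, 39.2 in AGS-1 ISO, 0.637 in HGC-27 control and 0.708 in HGC-27 ISO. It was nearly confined to AGS-1 among these libraries. SLC7A11 encodes xCT, the cystine and glutamate exchanger, and had 35.9, 31.9, 16.3 and 11.1 FPKM in the same order. The light chains together gave 2.63 FPKM per FPKM of SLC3A2 in AGS-1 control, 2.20 in AGS-1 ISO, 1.95 in HGC-27 control and 2.27 in HGC-27 ISO. SLC7A5 made up 79.6% and 71.8% of that light chain sum in AGS-1 and 94.4% and 96.4% in HGC-27. The share of SLC7A11 went from 6.82% to 12.6% in AGS-1 and from 5.37% to 3.40% in HGC-27, opposite directions that no library scaling can alter.

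SLC43A1 encodes LAT3, a facilitative transporter of large neutral amino acids, and lies on chromosome 11 from 57484534 to 57515780 on the minus strand (ENSG00000149150). Its level was 14.9 FPKM in AGS-1 control, 4.43 in AGS-1 ISO, 45.9 in HGC-27 control and 25.5 in HGC-27 ISO. Both ISO libraries were below their controls, and both HGC-27 libraries were above both AGS-1 libraries. SLC43A1 fell 3.37-fold in AGS-1, with a log2 ratio of -1.55 (SE 0.09), and its HGC-27 ratio of -0.82 (SE 0.04) was the lowest of all members in that line.

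SLC1A5 encodes ASCT2, a sodium-dependent exchanger of glutamine and other neutral amino acids. It was the most abundant member in AGS-1 control, with 549 FPKM there, 245 in AGS-1 ISO, 135 in HGC-27 control and 89.1 in HGC-27 ISO. The level was lower with ISO in both lines, at least 2-fold in AGS-1 with a log2 ratio of -1.16 (SE 0.02) and less in HGC-27 with -0.59 (SE 0.03). SLC6A9, the glycine transporter GLYT1, had 18.8 and 10.6 FPKM in AGS-1 and 31.1 and 20.8 FPKM in HGC-27. Its ratios of -0.77 and -0.55 were below the median of all genes in both lines. SLC38A2, the sodium-coupled transporter SNAT2, had 226 and 147 FPKM in AGS-1 and 55.7 and 59.4 FPKM in HGC-27. Its relative SLC38A1 was close to level across the libraries, between 35.8 and 46.2 FPKM. SLC38A10 was among the 5 largest ratios in AGS-1 at 0.19, with 26.2 and 30.0 FPKM there and 30.1 and 33.1 FPKM in HGC-27. SLC7A1, the cationic transporter CAT-1, had ratios of -0.40 and -0.36.

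Genes of the amino acid response, which cells switch on through ATF4 when amino acids are short, were followed by a list of 16, of which 12 were in the table. The list had a median log2 ratio of -0.52 in AGS-1, against -0.55 in HGC-27, with 7 and 8 of the 12 below the median of all genes. With the other scalings it was -0.25 and -0.13 in AGS-1, against -0.48 and -0.40 in HGC-27. PHGDH (11 and 3 fragments) and STC2 (27 and 13) were near 0 FPKM in AGS-1. Their AGS-1 ratios of -0.08 and -0.22 are held near 0 by the pseudocount, though both are included in the median and counts. TRIB3, a pseudokinase, had 13.2 FPKM in AGS-1 control, 2.82 in AGS-1 ISO, 118 in HGC-27 control and 80.0 in HGC-27 ISO, and fell by 1.89 on the log2 scale in AGS-1. CHAC1, which degrades glutathione, had 200, 125, 82.2 and 37.2 FPKM in the same order and fell by 1.13 in HGC-27. These were the only genes of the list past 2-fold, each in 1 line, and CHAC1 was short of it with upper-quartile scaling (-0.98). ATF4 itself had 299, 269, 229 and 235 FPKM, and DDIT4, the highest of the list by its mean over the libraries, had 456, 254, 510 and 278 FPKM. The highest in AGS-1 ISO was ATF4, and in HGC-27 it was PSAT1, with 522 FPKM in control and 338 in ISO. ATF3 and DDIT3 went the other way in AGS-1, with log2 ratios of 0.41 and 0.46, and had 0.07 and -0.55 in HGC-27. No gene of this list was called by limma for ISO.

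The 10 mitochondrial carriers held close to the table, with median log2 ratios of -0.19 in AGS-1, against -0.08 in HGC-27, and none reached 2-fold. With the other scalings the AGS-1 median became 0.07 and 0.22, and the HGC-27 median 0.07 with upper-quartile scaling. Single ratios ran from -0.63 to 0.14 in AGS-1 and, for HGC-27, from -0.56 to 0.36. SLC25A5 and SLC25A6 encode ANT2 and ANT3, which exchange ADP and ATP across the inner membrane. SLC25A5 had 226 FPKM in AGS-1 control, 164 in AGS-1 ISO, 256 in HGC-27 control and 265 in HGC-27 ISO. SLC25A6 had 417, 268, 127 and 99.5 FPKM in the same order, so AGS-1 carried more SLC25A6. For SLC25A5 the HGC-27 control was only 1.13-fold above the AGS-1 control. SLC25A5 was not called for the line (adjusted p 0.187 in limma). Processed copies of these genes exist elsewhere in the genome and the counting of shared reads was not given in the sources used here, so these levels are uncertain. SLC25A11, the oxoglutarate and malate carrier, had 23.4 and 16.3 FPKM in AGS-1 and 22.4 and 14.9 FPKM in HGC-27. Its ratios of -0.50 (SE 0.07) and -0.56 (SE 0.07) were short of 2-fold, and the first became -0.23 and -0.09 with the other scalings. SLC25A28, the iron importer mitoferrin-2, had the highest ratio of any member in HGC-27, 0.36 (SE 0.05), going from 35.5 to 45.9 FPKM, and had 14.8 and 16.5 FPKM in AGS-1. Of the citrate carrier SLC25A1 the ratios were -0.20 and -0.32, and of the phosphate carrier SLC25A3 -0.20 and 0.11.

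Of 7 listed genes of outer membrane pores, import receptors and the pyruvate carrier, 5 (pore and receptor genes) were in the table, none past 2-fold, with medians of -0.35 in AGS-1, against -0.12 in HGC-27. With median-of-ratios scaling they were -0.07 and -0.06, and with upper-quartile scaling they turned to 0.08 and 0.03. VDAC1, the highest by its mean over the libraries, had 92.6 and 71.1 FPKM in AGS-1 and 74.7 and 74.9 FPKM in HGC-27. In HGC-27 control VDAC2 was above it, at 76.8 FPKM.

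Of the 3 ion transporters, SLC12A2 encodes NKCC1, the cotransporter of sodium, potassium and chloride. It had 60.9 FPKM in AGS-1 control, 32.0 in AGS-1 ISO, 4.22 in HGC-27 control and 3.55 in HGC-27 ISO. AGS-1 was far above HGC-27 in either condition, and the AGS-1 ratio of -0.91 (SE 0.02) came close to 2-fold without reaching it. SLC4A2, the chloride and bicarbonate exchanger AE2, was instead higher in HGC-27, with 85.3 and 77.8 FPKM there against 26.9 and 25.7 FPKM in AGS-1. Its ratios of -0.07 and -0.13 became positive in AGS-1 with both other scalings and in HGC-27 with upper-quartile scaling. SLC20A1, the sodium-coupled phosphate transporter PiT-1, had ratios of -0.18 and -0.15, the first of which turned positive with both other scalings.

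Ion pumps that keep the sodium and calcium gradients were represented by 5 of 7 listed genes, with median log2 ratios of -0.49 in AGS-1, against -0.26 in HGC-27. These became -0.21 and -0.20 with median-of-ratios scaling and -0.06 and -0.12 with upper-quartile scaling, where the order of the lines was reversed. ATP1B1, a beta subunit of the sodium pump and the highest of the list in AGS-1 but the lowest in HGC-27, had 499 FPKM in AGS-1 control, 185 in AGS-1 ISO, 3.39 in HGC-27 control and 4.21 in HGC-27 ISO. It was the only pump gene past 2-fold, at -1.43 in AGS-1, and with upper-quartile scaling it was just short of it.

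Metal transporters were the class with the highest medians in AGS-1 among classes of more than 1 gene, 0.10 there and 0.13 in HGC-27. With the other scalings these became 0.36 and 0.50 in AGS-1, against 0.19 and 0.27 in HGC-27. SLC39A14, the ZIP14 importer of zinc, iron and manganese, was the most abundant of the 4, with 60.0 and 42.5 FPKM in AGS-1 and 45.7 and 39.3 FPKM in HGC-27. SLC30A1, the zinc exporter ZnT1, had 18.8 and 21.9 FPKM in AGS-1 and 13.0 and 15.4 FPKM in HGC-27. SLC39A9, the zinc transporter ZIP9, had 14.9 and 16.6 FPKM in AGS-1 and 13.4 and 17.4 FPKM in HGC-27. Both of these had ratios above 0 in both lines, 0.20 and 0.23 for SLC30A1 and 0.15 and 0.36 for SLC39A9, short of 2-fold. The copper importer SLC31A1 was nearly level, at 0.04 and 0.03.

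The 4 genes of the SLC35 family had ratios from -0.61 to 0.25 in AGS-1 and, for HGC-27, from -0.04 to 0.33. SLC35B2 brings the sulfate donor PAPS into the Golgi. It had 22.7 and 27.2 FPKM in AGS-1 and 25.04 and 31.8 FPKM in HGC-27, with ratios of 0.25 (SE 0.06) and 0.33 (SE 0.06). SLC35A2, the carrier of UDP-galactose, had 19.1 and 16.0 FPKM in AGS-1 and 5.02 and 6.30 FPKM in HGC-27. Its ratio was 0.28 in HGC-27 and -0.24 in AGS-1, where the sign turned with both other scalings.

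The 7 carriers of other organic solutes had ratios from -0.46 to 0.46 in AGS-1 and, for HGC-27, from -0.76 to 0.30, and held a clear case of opposite values. SLC29A2 encodes ENT2, an equilibrative nucleoside transporter, and had 21.7 FPKM in AGS-1 control, 30.2 in AGS-1 ISO, 40.7 in HGC-27 control and 23.7 in HGC-27 ISO. It was the highest ratio of any member in AGS-1, 0.46 (SE 0.06), and among the lowest in HGC-27, -0.76 (SE 0.05), neither past 2-fold. SLC29A1, which encodes ENT1, had 13.1, 10.6, 31.9 and 22.7 FPKM in the same order, with ratios of -0.28 and -0.47, the first of which turned positive with upper-quartile scaling. SLC27A4, the fatty acid transport protein FATP4, had 41.4 and 30.5 FPKM in AGS-1 and 17.8 and 22.0 FPKM in HGC-27. SLC44A2, a choline transporter-like protein and the most abundant of the class by its mean over the libraries, had 46.4 and 33.6 FPKM in AGS-1 and 37.1 and 33.6 FPKM in HGC-27. In HGC-27 control SLC29A2 was above it. The HGC-27 ratio of SLC44A2, -0.14, turned positive with upper-quartile scaling. The creatine transporter SLC6A8 had 29.5 and 31.2 FPKM in HGC-27 and only 6 and 2 fragments in AGS-1, or 0.0691 and 0.0220 FPKM. These are too few to read a ratio between control and ISO, though that ratio is included in the counts and medians of the members. SLC6A8 has near-identical copies, which also makes its level uncertain.

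2 members carry an SLC symbol without being transporters. SLC2A4RG, a transcription factor named after the gene SLC2A4, had 49.9 and 33.7 FPKM in AGS-1 and 29.4 and 24.4 FPKM in HGC-27. SLC9A3R1, the scaffold protein NHERF1, was between 20.8 and 24.9 FPKM in every library. Of the ATP-driven ABC transporters 3 genes were in the table, none past 2-fold, with medians of 0.27 in AGS-1, against -0.05 in HGC-27. ABCA3, the highest by its mean over the libraries, had 5.55 and 10.7 FPKM in AGS-1 and 35.3 and 39.8 FPKM in HGC-27. In AGS-1 ABCA2 was above it, at 10.9 and 13.4 FPKM. With the other scalings ABCA3 was past 2-fold in AGS-1, and the HGC-27 median of these 3 genes turned to 0.01 and 0.09.

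The ISO difference shared by both lines was tested with limma over all 4 libraries, with the cell line in the model and 1 residual degree of freedom, so that the test leans on variances shared over the table. Of the 46 members 1 was called, SLC43A1, with a log2 difference of -1.19 (SE 0.22) and a Benjamini-Hochberg adjusted p of 0.0283 in limma, lower in 2 of 2 lines. This was 2.17% of the members, beside 0.832% of all genes tested called lower and 0.104% called higher. At an unadjusted p under 0.05, 9 members were lower and 0 higher, which is 19.6% and 0% of them beside 17.8% and 2.22% of all genes. AQP3 had -1.46 (SE 0.34) with an adjusted p of 0.0708 in limma and missed the threshold, though it was called with a pseudocount of 0.1 (adjusted p 0.00734 in limma) and otherwise had 0.161 to 1.00 over the alternatives. SLC6A9 had 0.116 and SLC1A5 0.123. The call of SLC43A1 was lost in limma with median-of-ratios scaling (adjusted p 0.165), upper-quartile scaling (0.215), no filter on low values (0.101), no trend (0.115) and no cell line in the model, and was kept with pseudocounts of 0.1 (0.00486) and 5 (0.0481). A difference of the ISO change between the lines leaves no residual degree of freedom and was not tested.

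Far more members differed between the lines than with ISO. Between the control libraries, 14 members were at least 2-fold higher in AGS-1, 30.4% beside 24.0% of all genes, and 6 were at least 2-fold higher in HGC-27, 13.0% beside 12.7%. With limma over all 4 libraries, 16 members were higher in AGS-1 (34.8%, beside 32.2% of all genes) and 11 higher in HGC-27 (23.9%, beside 24.7%) at an adjusted p under 0.05. With upper-quartile scaling these became 14 and 15 members, while the split over all genes went from 928 and 711 to 789 and 1064. The members' shares lay near those of the table. The 2 libraries of a line are 1 control and 1 ISO culture. The limma p-values and SE for the line therefore do not measure the spread between cultures of a line.

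Higher in AGS-1 with the largest differences were SLC7A7, SLC16A3, SLC2A1, AQP3 and SLC12A2. Their limma log2 differences were 5.01 (SE 0.29) for SLC7A7, 4.33 (SE 0.31) for SLC16A3, 4.09 (SE 0.30) for SLC2A1, 3.72 (SE 0.34) for AQP3 and 3.21 (SE 0.22) for SLC12A2. SLC2A1 had an adjusted p of 9.52e-08 in limma. Of the 2897 listed genes 2843 averaged 10 FPKM or more, and how they were chosen was not given. SLC16A3, AQP3 and SLC12A2, among the 16 members called, were below 10 FPKM in both HGC-27 libraries. They may have been listed only through AGS-1, so their differences are descriptions and no test. In the controls SLC7A7 was 112-fold, SLC16A3 55.6-fold, AQP3 32.8-fold, SLC2A1 29.5-fold and SLC12A2 14.4-fold higher in AGS-1, the HGC-27 value of SLC7A7 resting on 66 fragments. Higher in HGC-27 were SLC6A8 at -4.91 (SE 0.38), SLC43A1 at -1.92 (SE 0.22), SLC4A2 at -1.59 (SE 0.20), SLC25A28 at -1.32 (SE 0.19) and SLC29A1 at -1.12 (SE 0.19), with adjusted p in limma of at most 0.000249 (SLC29A1). The size for SLC6A8 depends on the pseudocount, since AGS-1 had so few fragments. SLC7A7 averaged under 1 FPKM in HGC-27 and SLC6A8 under 1 FPKM in AGS-1, so each passed the filter on low values only through the line where it is high, and their differences are descriptions and no test. They are 1 of the 16 and 1 of the 11 members called.

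**Figure D4:**
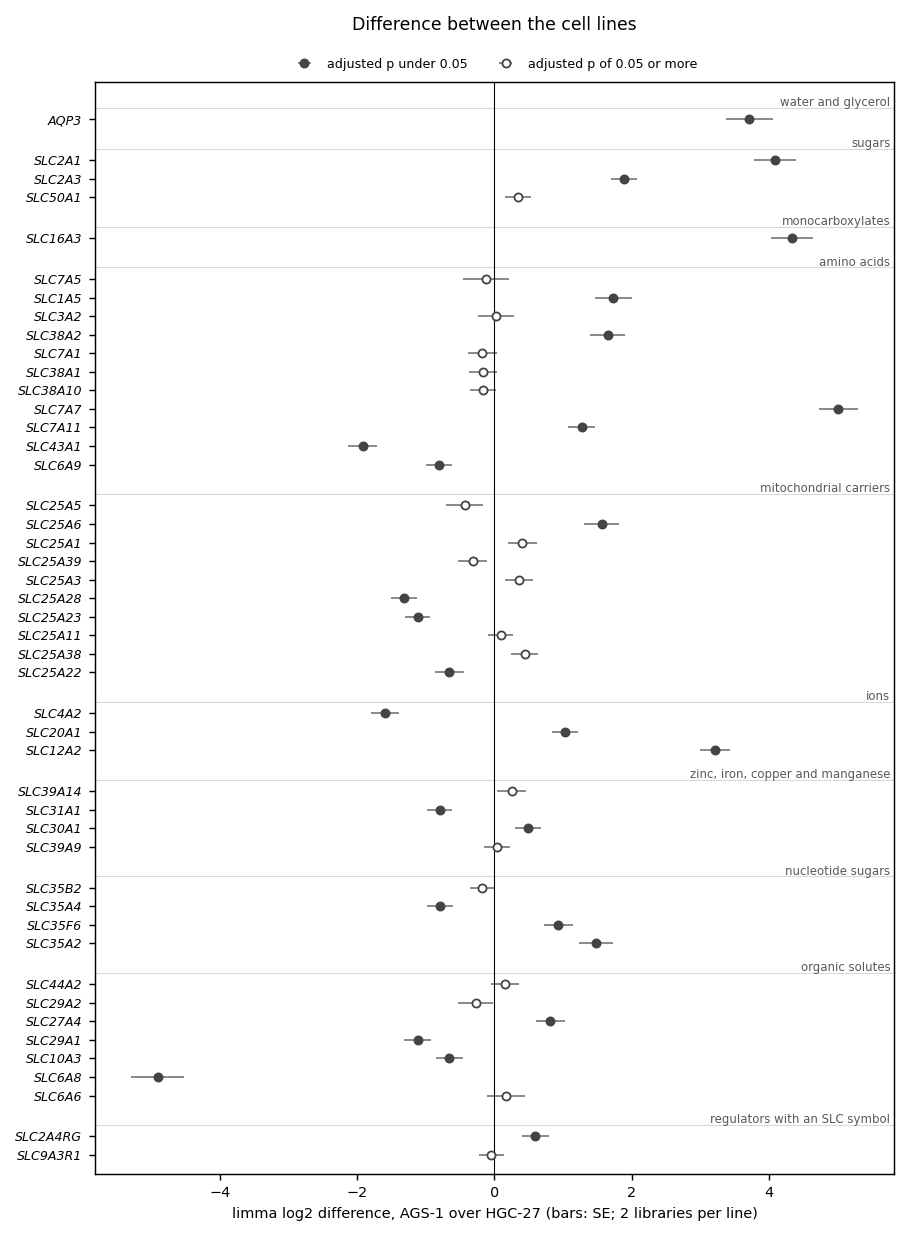
Limma log2 difference between AGS-1 and HGC-27 for each member, with bars for the SE over 2 libraries per line (1 control and 1 ISO) and filled points for an adjusted p under 0.05. SLC7A7 at 5.01 and SLC6A8 at -4.91 mark the ends of the range.

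Ratios of related transporters, or of a transporter and its chaperone, inside each library do not depend on the scaling between libraries. Described here with 95% counting intervals are 8 such pairs, chosen after their values were seen and 3 of them sharing SLC7A5. SLC2A1 made up 87.6% of the summed SLC2A1 and SLC2A3 FPKM in AGS-1 control, 80.0% in AGS-1 ISO, 48.2% in HGC-27 control and 58.5% in HGC-27 ISO. The log2 change of SLC2A1 per SLC2A3 was -0.82 (interval -0.87 to -0.76) in AGS-1 and 0.60 (0.48 to 0.72) in HGC-27. SLC7A5 per SLC3A2 had changes of -0.41 (-0.45 to -0.36) and 0.25 (0.21 to 0.28). SLC7A11 per SLC7A5 had 1.04 (0.98 to 1.10) in AGS-1 and -0.69 (-0.78 to -0.60) in HGC-27. SLC29A2 per SLC29A1 had 0.78 (0.60 to 0.97) and -0.29 (-0.42 to -0.15).

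SLC1A5 per SLC7A5 differed in another way, with 1.31 and 1.35 in AGS-1, a log2 change of 0.04 (0.00 to 0.09), and 0.469 and 0.284 in HGC-27, a change of -0.73 (-0.78 to -0.67). The pair was lower together in AGS-1, and in HGC-27 SLC1A5 was lower alone. SLC16A3 per BSG had a change of -1.06 (-1.12 to -0.99) in AGS-1 and -0.06 (-0.34 to 0.23) in HGC-27, where no change was detectable at this depth. SLC38A2 per SLC38A1 had -0.43 and -0.10, and SLC25A6 per SLC25A5 had -0.17 and -0.40, lower in both lines. The intervals cover counting error in 1 library per condition, so a difference between cultures was not measured.

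**Figure D5:**
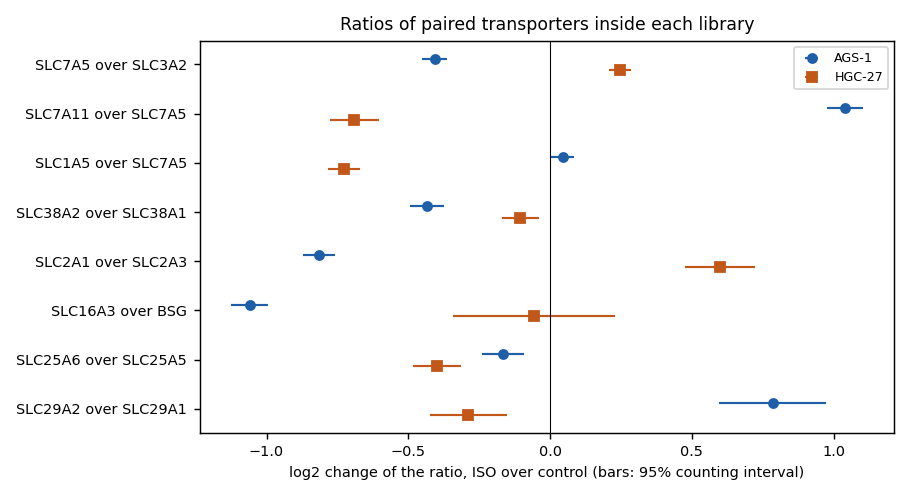
Log2 change with ISO of the FPKM ratio of 8 gene pairs inside each library, for AGS-1 (circles) and HGC-27 (squares), with bars for the 95% counting interval. The pairs of SLC2A1 with SLC2A3, SLC7A5 with SLC3A2, SLC7A11 with SLC7A5 and SLC29A2 with SLC29A1 lie on opposite sides of 0 in the 2 lines.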

How the data were processed

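Total RNA was sequenced as mRNA libraries, and the 4 samples are 1 per cell line and condition. The text of the study speaks of duplicates, and how these relate to the 4 samples was not given in the sources used here. The authors deposited 1 table with FPKM for 2897 genes, and how these genes were chosen was not given in the sources used here. The submitters' processing notes name CASAVA 1.8, HISAT2 and GRCh38 (hg38), and the counting tool was not given in the sources used here. The unit follows the FPKM named by the study. FPKM multiplied by the length of the gene was a whole multiple of a single step per library, within 0.1 fragments, for 100% of the values. That step gave the fragments and the library totals. They served for depth and counting SE only.

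Log2 ratios used a pseudocount of 1 FPKM, no filter and the deposited scaling, and a 2-fold change counted as called. No p-value was computed within a line. limma 3.58.1 in R 4.3.3 (trend, Benjamini-Hochberg) was fitted to log2(FPKM + 1) of the 2883 genes averaging 1 FPKM or more, all 46 members among them, with line and treatment in the model. It was first run on simulated data with equal ISO changes in both lines. That run checks the code and does not show how reliable the calls from these libraries are. Python 3.11.15, numpy 2.4.6, pandas 2.3.3 and matplotlib 3.10.9 were used otherwise. Named are AQP3, members past 2-fold, the 5 largest rises and falls with ISO in each line, members called for ISO, the most abundant of each substrate class and the 5 largest line differences in each direction. Other members were named to complete families or pairs, after their values were seen, as were the gene pairs and motifs. List genes are named where past 2-fold or highest of the list, with ATF3, ATF4, DDIT3, BSG, glycolytic and marker genes added after their values were seen, as were the mitochondrially encoded genes. SLC2A4RG, by its symbol a sugar transporter, was put with SLC9A3R1 because it encodes a transcription factor. Members and lists were chosen with earlier results of these data known. Promoters come from RefSeq (GRCh38.p14) and untranslated and coding parts from GENCODE 29. Alternatives were other pseudocounts, scalings, filters and models.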

Additional observations from a re-analysis of the deposited data

Results flagged for a closer look

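For 4 of the 46 members the ISO and control libraries differed in opposite directions in the 2 lines, by more than 2 counting SE in each line and under each of the 3 scalings, which is 8.70% of them beside 4.83% of all 2897 genes. The AGS-1 log2 ratio minus that of HGC-27 was -1.44 for SLC2A1 and -1.34 for SLC7A5, both lower with ISO in AGS-1 and higher in HGC-27. SLC38A2 had the same directions, with -0.71. The difference was 1.21 for SLC29A2, which was higher in AGS-1 and lower in HGC-27. With 1 library per condition and line, the difference between the lines was not tested.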

How the results depend on the processing

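With pseudocounts of 0.1 and 5 FPKM, with only members averaging 10 FPKM or more and without the 2 regulators (added after seeing the data), the counts past 2-fold, 6 in AGS-1 against 0 in HGC-27, were equal. Upper-quartile scaling gave 2 in AGS-1. The median of the members in AGS-1 became -0.0388 with median-of-ratios and 0.0703 with upper-quartile scaling, and in HGC-27 0.0214 with the latter. For ISO across both lines limma called 2 members (SLC43A1 and AQP3) with a pseudocount of 0.1 and 0 with median-of-ratios scaling, upper-quartile scaling, no filter on low values, no trend or no cell line in the model, where 7, 8, 8, 8 and 0 members had an unadjusted p under 0.05. The cause was not tested. Over all genes limma called 27 for ISO, against 107 and 12 with pseudocounts of 0.1 and 5, 6 without the filter, 6 without a trend and 0 with either scaling or without the cell line. Between 24 and 29 members were called for the cell line, and between 18 and 20 differed at least 2-fold between controls. Of 368 alternative values of the log2 ratios of the 46 members (those outside the naming rule added after seeing the data), 42 changed sign, all with the scalings and none of a ratio past 2-fold. The cell line in the limma model pairs ISO and control within a line. Depth limits AQP3, SLC7A7 and SLC16A3 in HGC-27 and SLC6A8 in AGS-1. It also limits list genes, PHGDH, STC2 and STOM in AGS-1 among them.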
